A study of Mus musculus with 24 samples.

Results

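Cultured epidermal cells of the mouse (primary keratinocytes) were compared between 2 genotypes after infection with a retrovirus encoding activated Hras and treatment with GW0742, a synthetic agonist of PPAR-beta. The comparison is of the 3 arrays of Ppar-beta null cells with the 3 arrays of wild-type cells in this one condition, 6 of the 24 arrays of the study, across 19937 genes. Both groups carry the strain label C57/BL6, were cultured for 2 days before infection, had been transduced with Hras for 48 hours and received 1 uM GW0742 for 24 hours, so Hras and the ligand are common to both sides and the genotype is the labelled difference. The other 18 arrays hold the same genotypes with Hras and the vehicle DMSO, and mock-infected cells with GW0742 or with DMSO, 3 arrays per group. They are used here to show where the genotype difference under Hras and GW0742 departs from that without the ligand or without Hras. Neither the way the gene was inactivated nor the source of each replicate, as a separate culture or animal, is stated in the labels. The p-values therefore reflect array-to-array spread alone, and that spread may be technical.

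PPAR-beta, also called PPAR-delta and encoded by Ppard, is a nuclear receptor that binds fatty acids and their derivatives and pairs with RXR on DNA. With an agonist bound it raises the transcription of genes for fatty acid transport and oxidation, and in keratinocytes it is known for links to terminal differentiation, lipid metabolism and the response to injury. Activated Hras drives ERK signalling and is the classical initiating oncogene of mouse skin tumours.

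Values are log2 expression, and a difference is null minus wild-type on the log2 scale ± standard error, from a limma model of these 6 arrays. A gene passed at a Benjamini-Hochberg adjusted p under 0.05. Ppard itself was checked first. It read 11.81, 11.80 and 11.84 in the wild-type arrays and 11.21, 11.47 and 11.41 in the null arrays. The difference was -0.46 ± 0.09 (adjusted p = 0.014), a 1.37-fold lower signal, and the groups did not overlap. The groups did not overlap for 28.7% of all tested genes, 14.7% with null higher and 13.9% with null lower. Without wild-type replicate 1, 2 or 3 Ppard no longer passed, with adjusted p-values up to 0.0706. It was also lower in null cells in the other 3 conditions, by 0.28 to 0.57 on the log2 scale, and passed in each. The transcript was thus still measured in the null cells, and whether the probes lie in a deleted part is not known here, so the probe set gives the direction of the label but is no measure of residual receptor. Of the 100 tested genes nearest to Ppard in the RefSeq gene order, 3 were higher and 2 lower in null cells. That is 5% passing, beside 8.46% of all tested genes.

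In all, 1686 genes passed, which is 8.46% of those tested, with 706 (3.54%) higher and 980 (4.92%) lower in null cells. At an estimated change of at least 2-fold, 64 were higher and 147 lower. The median difference over all genes was 0.04, and over the passing genes the median size was 0.51. Correlations between arrays were 0.9973 to 0.998 within the wild-type group, 0.9927 to 0.9968 within the null group and 0.9882 to 0.9936 between them. The null arrays were the widest group of the study: the median SD over genes was 0.1222, against 0.0647 to 0.0798 in the other 7 groups. Leaving out null replicate 1 raised the count to 3234, and leaving out null replicate 2 or wild-type replicate 1, 2 or 3 lowered it to 813, 794, 935 and 808, so the number of calls is loosely fixed by these arrays. Of 10 keratinocyte genes checked, the basal keratins Krt5 and Krt14 lay between 14.02 and 14.09 and between 13.97 and 14.07 over the 6 arrays, and Trp63, the transcription factor of stratified epithelium, between 11.32 and 11.56. The adhesion genes Col17a1, Dsg3, Itgb4 and Perp did not pass, while Itga6, an integrin of basal cells, was higher in null cells at 0.35 (adjusted p = 0.0238), a call lost without any one array other than null replicate 1. The suprabasal keratins were lower in level and less even, Krt1 at 7.14 to 9.16 and Krt10 at 7.78 to 8.41.

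The largest difference was in Pdk4, a mitochondrial kinase that shuts off pyruvate dehydrogenase and a standard PPAR target. It read 12.33, 12.45 and 12.61 in wild-type arrays and 6.79, 6.65 and 6.91 in null arrays. All 3 wild-type arrays were far above all 3 null arrays. The difference was -5.68 ± 0.10 (adjusted p = 1.26e-07), a 51.2-fold lower level in null cells. Il3, a haematopoietic cytokine gene, came next at -3.66 ± 0.22, with wild-type arrays at 9.29, 9.15 and 9.01 and null arrays at 5.99, 4.97 and 5.49. Ublcp1, a phosphatase of the nuclear proteasome, was lower by 8.38-fold, Mcam, a cell adhesion molecule also called CD146, by 8.0-fold and Mid1, a microtubule-bound ubiquitin ligase, by 6.73-fold. Snai3, a Snail family gene, Ppef1, a calcium-binding phosphatase, Pbp2, Serpinb9e, a serpin of the granzyme B inhibitor family, Gabrp, a GABA-A receptor subunit, Hilpda, Csf2, Cpt1a, Plscr2 and Slc15a2, a peptide transporter, completed the 15 largest falls, at -2.67 to -2.10. Predicted or unnamed transcripts are left out of this ranking and of that of the rises.

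On the other side Spon2, a secreted matrix protein, rose the most. It read 8.40, 8.21 and 8.10 in wild-type arrays and 10.80, 11.02 and 10.84 in null arrays, a difference of 2.65 ± 0.10 (adjusted p = 8.72e-06) or 6.29-fold. Klk5, a kallikrein protease of the stratum corneum, was 4.15-fold higher, from 8.92, 9.35 and 9.42 to 10.93, 11.55 and 11.36. Map2, a microtubule-associated protein, Derl3, a factor of endoplasmic reticulum-associated degradation, Plbd1, Atp10d, Dhdh and Car6 followed at 1.99 to 1.75. The rest of the 15 largest rises were the late cornified envelope genes Lce1b, Lce1a2 and Lce1f, the calmodulin-like Calm4, Slc10a6, Qpct and the suprabasal keratin gene Krt1, at 1.67 to 1.53. The late cornified envelope genes, Klk5 and Krt1 are genes of the upper, differentiating layers of the epidermis.

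**Figure D1:**
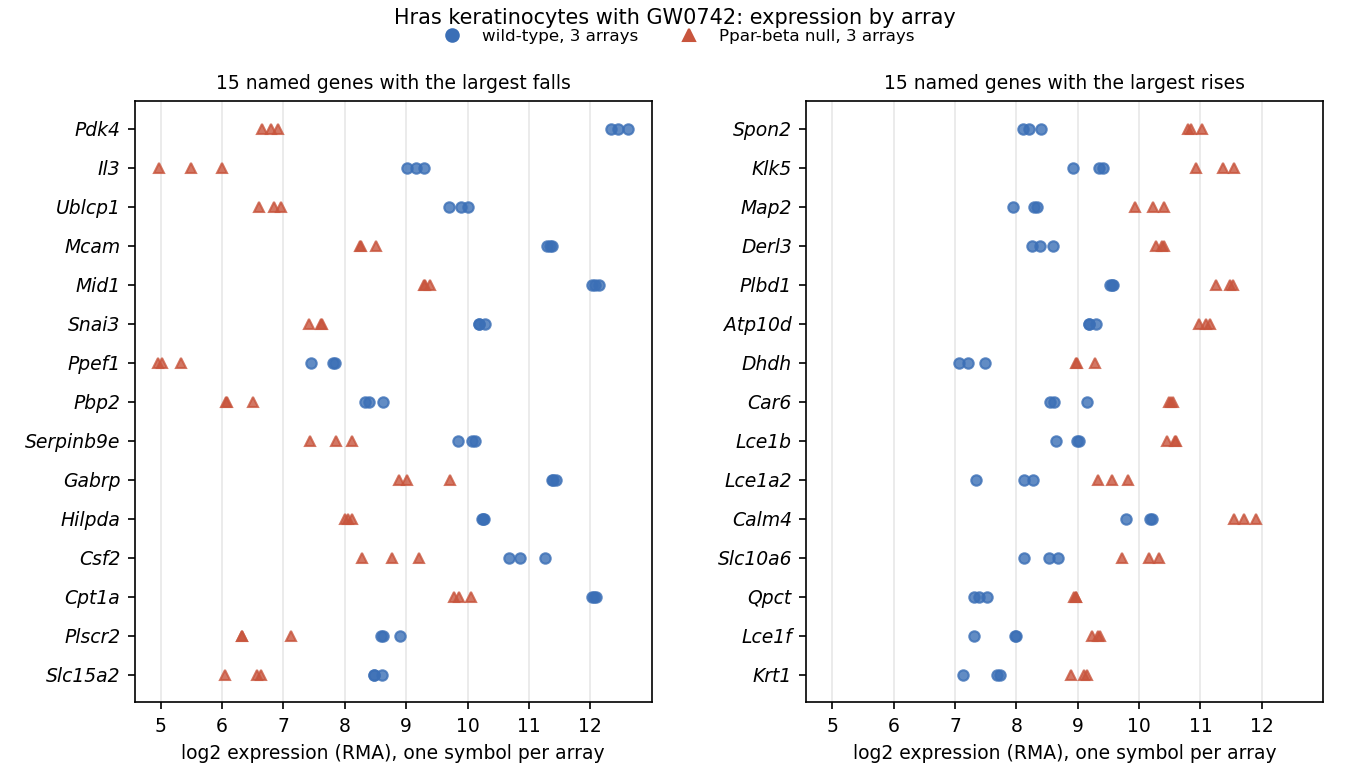
Log2 expression (horizontal axis) of the 15 named genes with the largest falls (left) and the 15 with the largest rises (right) in null against wild-type Hras keratinocytes with GW0742. Each symbol is an array, circles for the 3 wild-type and triangles for the 3 null arrays; the groups do not overlap for any gene drawn, which is how they were chosen, and Pdk4 has the widest gap.

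Genes of the PPAR response leaned low in null cells, with 31 estimates below 0 and 9 above, though most did not pass. Of the 40 measured genes in a list of PPAR targets, 17 were lower in null cells and 0 were higher, against 4.92% and 3.54% of all genes, and the list's median difference was -0.26 beside 0.04 for all genes. The list's mean log2 level lay between 9.13 and 9.20 in the wild-type arrays and between 8.45 and 8.47 in the null arrays. The count of lower genes was 15 to 18 when single arrays were left out. The lower members span the steps of fatty acid use. Angptl4, a secreted inhibitor of lipoprotein lipase, read 12.02, 12.10 and 12.11 in wild-type arrays and 10.31, 9.89 and 9.75 in null arrays (-2.09 ± 0.13, adjusted p = 1.06e-04). Acot1, an acyl-CoA thioesterase, read 9.48, 9.59 and 9.33 against 7.54, 7.55 and 7.46 (-1.95 ± 0.08, adjusted p = 1.71e-05). Vnn1, a pantetheinase, was at -1.76 ± 0.12. In each of these the lowest wild-type array was above the highest null array, as it was for 13.9% of all tested genes. Among the 23 members that did not pass was Fabp4, a fatty acid carrier, at -0.31 ± 0.14 (adjusted p = 0.257).

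Genes of mitochondrial fatty acid oxidation leaned low as well, with 17 estimates below 0 and 7 above. Of 24 measured genes of this pathway, 12 were lower and 1 was higher in null cells, with a median of -0.35, and the lower count was 9 to 14 with single arrays left out. Cpt1a, which carries long-chain acyl groups onto carnitine and sets the rate of their import, read 12.06, 12.09 and 12.03 in wild-type arrays and 10.06, 9.86 and 9.77 in null arrays, a 4.48-fold lower level (-2.17 ± 0.09, adjusted p = 1.41e-05). Its partner on the inner membrane, Cpt2, was at -1.26 ± 0.11. Decr1 and Eci2, which handle the double bonds of unsaturated fatty acids, were at -1.60 ± 0.10 and -1.42 ± 0.12. Hadhb, a subunit of the trifunctional protein, read 10.58, 10.70 and 10.67 against 9.48, 9.51 and 9.33 (-1.21 ± 0.08), and Acadl, a long-chain acyl-CoA dehydrogenase, was at -1.18 ± 0.09. Etfb, Etfdh, Hadha, Acaa2, Acads and Acadvl made up the rest of the lower genes. The gene that passed as higher was Cpt1c, a carnitine palmitoyltransferase homologue best known from neurons, at 0.46. Acads lost its call without wild-type replicate 1 or 3 or null replicate 2, Etfdh without wild-type replicate 2 or 3 or null replicate 2, Cpt1c without wild-type replicate 3, and Acadvl without any array but null replicate 1. The list shares 9 lower members with the PPAR targets, so the counts are not separate evidence.

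Other lipid genes moved less. Their counts stand beside 3.54% higher and 4.92% lower over all tested genes. Of 19 peroxisomal oxidation genes 4 were lower and 0 higher, led by Crot, a carnitine acyltransferase, at -0.90 ± 0.13 and Ech1 at -0.77 ± 0.09. Of 25 lipid droplet and lipase genes only Hilpda and Plin2 passed, both lower, while 18 of the 25 estimates were above 0. Without null replicate 1, 5 were lower and 4 higher. Hilpda, a lipid droplet protein that inhibits lipolysis, was tight in both groups, at 10.27, 10.25 and 10.23 in wild-type and 8.12, 8.05 and 8.0 in null arrays (-2.19 ± 0.07, adjusted p = 2.69e-06). Plin2, which coats lipid droplets, read 13.54, 13.60 and 13.51 against 12.45, 12.33 and 12.39 (-1.16 ± 0.07). Of 16 genes of LXR and cholesterol efflux 5 were lower and 1 higher. Abca1, the cholesterol efflux pump, read 11.02, 11.14 and 11.22 against 9.51, 9.61 and 9.38 (-1.63 ± 0.09, adjusted p = 4.32e-05), and Ch25h, which makes 25-hydroxycholesterol, was at -1.35 ± 0.17. Of 20 cholesterol synthesis genes 3 were lower and 1 higher, and of 21 fatty acid synthesis genes 4 were lower and 1 higher, among them Dhcr7 at -1.05 ± 0.08 and the desaturases Fads1 at -0.60 ± 0.11 and Fads2 at -0.55 ± 0.09. The cholesterol count of 3 fell to 1 without null replicate 2 or any single wild-type array, and the fatty acid count of 4 fell to 1 without wild-type replicate 3 and to 2 without wild-type replicate 1 or null replicate 2. Fads1 lost its call without null replicate 2 or any single wild-type array. With Hras and DMSO, 10 of the 20 cholesterol synthesis genes were higher and 1 lower, and the test of the difference passed for 4, all negative. Of 31 respiratory chain subunit genes 0 passed in limma in either direction, and the median was 0.03. With Hras and DMSO 5 of the 31 were higher and 1 lower, and the test of the difference between ligand and vehicle passed for 0.

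The kinases, phosphatases and receptors around these pathways mostly did not pass. Of 14 genes of pyruvate dehydrogenase, its kinases, phosphatases and related enzymes, Pdk4 was lower and Pdp1, a phosphatase that reactivates the complex, and Pcx, pyruvate carboxylase, were higher, at 0.45 ± 0.08 and 0.39 ± 0.07. Pdk2, a second kinase, was at -0.34 ± 0.09 and did not pass (adjusted p = 0.0594). Among the receptors, Pparg was higher at 0.43 ± 0.08 (adjusted p = 0.0148), with wild-type arrays at 7.26, 7.44 and 7.46 and null arrays at 7.81, 7.75 and 7.89. Without wild-type replicate 1 Pparg no longer passed, Pdp1 lost its call without wild-type replicate 1 or 3, and Pcx without null replicate 2 or any single wild-type array. Ppara was at 0.05 ± 0.10 (adjusted p = 0.811) and Rxra at -0.23 ± 0.07 (adjusted p = 0.082).

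The genotype difference was then set against the same difference in Hras cells given DMSO, where 2769 genes passed (13.9% of those tested), 6.79% higher and 7.10% lower in null cells. Genes lower in both conditions numbered 688, which is 70.2% of the lower genes here and 48.6% of those with DMSO. Genes higher in both numbered 437, 61.9% of those here and 32.3% of those with DMSO. The difference between the 2 genotype effects was tested as an interaction in limma over the 12 Hras arrays. It passed for 103 genes (0.517% of those tested), of which 14 (0.0702%) differed upward and 89 (0.446%) downward in null cells with the ligand. The count was 204 without null replicate 1 with GW0742 and 67 without null replicate 2 with DMSO. Of the 980 genes lower here, 74 were lower by more than with DMSO by this test, and of the 706 genes higher here, 9 were higher by more. The largest were Pdk4 at -5.54 ± 0.14 (adjusted p = 5.60e-10), Serpinb9e at -2.87 ± 0.30, Angptl4 at -2.71 ± 0.18, Hilpda at -2.26 ± 0.08, Adm, the vasodilator peptide adrenomedullin, at -2.17 ± 0.29, Ppef1 at -2.16 ± 0.19, Acot1 at -1.98 ± 0.12, Snai3 at -1.80 ± 0.13, Rptn at 1.69 ± 0.33 and Lgals9, a galectin, at -1.58 ± 0.12. Rptn, which encodes the envelope protein repetin, is the only one of these 10 with a positive difference, and its adjusted p was 0.0446; it lost the call when most single arrays were left out.

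**Figure D2:**
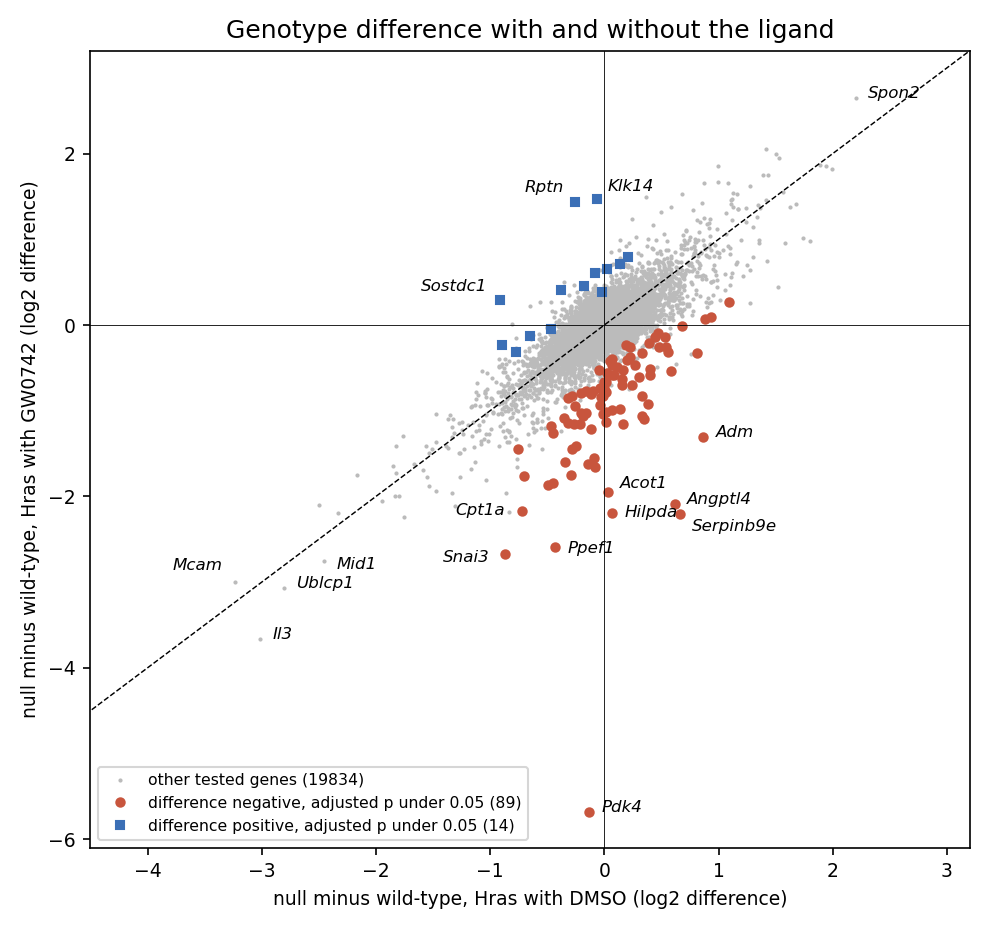
Genotype difference (null minus wild-type, log2) in Hras keratinocytes with DMSO (horizontal axis) and with GW0742 (vertical axis) for all 19937 genes. Each point is a gene, coloured where the difference between the 2 genotype effects passed (89 negative as circles, 14 positive as squares), and the dashed line marks equality; Mcam, Mid1, Ublcp1, Il3 and Spon2 lie near the line and Pdk4 far below it.

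The levels behind these differences took several shapes. With DMSO, Pdk4 was at 6.64 ± 0.16 (SD, n = 3) in wild-type and 6.50 ± 0.09 in null Hras cells, so the genotypes differed by -0.14 (adjusted p = 0.365) without the ligand. Hilpda was at 7.87 ± 0.04 and 7.94 ± 0.01, Acot1 at 7.60 ± 0.06 and 7.63 ± 0.15, and Abca1 at 9.57 ± 0.03 and 9.43 ± 0.05. In these 4 genes the null arrays with GW0742 stayed close to both DMSO groups and the wild-type arrays with GW0742 stood above all other groups. Lgals9 was at 9.11 ± 0.06 and 9.03 ± 0.17 with DMSO and had the same shape. Snai3 and Ppef1 were already lower in null cells with DMSO, by 0.87 (adjusted p = 9.83e-04) and 0.43 (adjusted p = 0.0373) on the log2 scale. Of the 74 genes, 13 passed as lower and 6 as higher in null cells with Hras and DMSO. Among the 13, Cpt1a, Vnn1, Acadl, Cpt2 and Decr1 were at -0.72, -0.70, -0.47, -0.45 and -0.35. Of the 40 PPAR targets measured, 5 were lower and 5 higher with Hras and DMSO. Serpinb9e was at 6.51 ± 0.11 in wild-type and 7.17 ± 0.50 in null cells with DMSO, and its mean with GW0742 was above these in both genotypes, at 10.01 and 7.80. Over the 74 genes the wild-type mean was higher with GW0742 than with DMSO in 74, by a median of 1.01, while the null means moved by a median of 0.04. The 74 genes were chosen from these arrays, so these medians describe the choice. Of the 74, 15 are in the PPAR target list, 9 in the mitochondrial oxidation list and 46 in no list used here. Angptl4 and Adm differed in shape: with DMSO they were higher in null than in wild-type Hras cells, by 0.62 (adjusted p = 0.0058) and 0.87 (adjusted p = 0.031), and with GW0742 the order was turned. Adm read 11.11, 11.15 and 11.33 in wild-type and 9.59, 10.19 and 9.89 in null arrays.

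The mock arrays, which had no part in choosing the 74 genes, gave a separate reading. With GW0742 and no Hras, 53 of the 74 genes (71.6%) were lower in null cells and 3 were higher, where 11.4% of all tested genes were lower and 12.3% higher. With DMSO and no Hras, 5 were lower and 17 higher, where 5.17% of all genes were lower and 4.86% higher. Pdk4 was at -3.92, Angptl4 at -2.25, Decr1 at -2.23, Acot1 at -1.87, Hadhb at -1.20 and Plin2 at -1.16 in mock cells with GW0742. The 3 genes higher there were Papss2 at 0.84, Prune2 at 0.52 and the oxidation gene Acadl at 0.22 (adjusted p = 1.02e-04, 0.0042 and 0.0183). Papss2 and Prune2 were named after their values were seen. Others did not pass in either direction. Among them, Ppef1, Vnn1 and Cxcl2 were at -0.09, -0.13 and -0.11 in mock cells with GW0742, and their adjusted p-values were 0.55, 0.20 and 0.63. For Ppef1 and Vnn1 the difference between Hras and mock cells passed, at -2.50 ± 0.18 and -1.63 ± 0.15. Cxcl2 passed it too, at -1.74 ± 0.22.

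Another 15 genes had a negative difference without being lower here. In 14 of them the null cells were higher with DMSO, and with GW0742 that excess did not pass. They include Gpat3, an enzyme of triglyceride synthesis, at 0.88 with DMSO and 0.07 with GW0742, Insig1, the sterol-regulated retention protein, at 0.68 and -0.02, and Ereg, the growth factor epiregulin, at 1.09 and 0.27. Of 36 glycolysis and HIF target genes, which include Adm, 17 were higher and 1 lower with DMSO, and 5 higher and 1 lower with GW0742. The test of that difference passed for 1 of the 36, Adm, and the count of 5 was 2 without null replicate 2 and 3 without wild-type replicate 1 or 2. Hbegf, heparin-binding EGF, was at 0.33 with DMSO (adjusted p = 0.0061) and -0.33 with GW0742 (adjusted p = 0.0555), a difference of -0.66 ± 0.10. Gpat3 and Insig1 were chosen for mention after their values were seen. Sostdc1, a secreted BMP and Wnt antagonist, had the reverse pattern: it was lower in null cells with DMSO, at 11.36 ± 0.10 (SD, n = 3) in wild-type and 10.44 ± 0.16 in null, and with GW0742 read 9.88, 10.10 and 10.16 against 10.41, 10.28 and 10.34. Its difference was 1.21 ± 0.13 (adjusted p = 7.61e-04), while its genotype effect with GW0742 was 0.29 ± 0.09 and did not pass (adjusted p = 0.0933).

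The promoters of the 74 genes were searched for the DNA element that nuclear receptors of this class read, a direct repeat of the motif AGGTCA with a spacing of 1 base. The 250 bases before the start in the RefSeq table (GRCm38.p6) were available for 63 of the 74 genes and for 15561 of all tested genes. The exact repeat, AGGTCA followed by any 1 base and AGGTCA, on either strand, was in 0 of the 63 and in 7 of the 15561 (0.045%). A single AGGTCA was in 8 of the 63 (12.7%), beside 14.3% of all genes, 14.8% of the genes lower here and 16% of those higher. ACGTG, the core of the hypoxia response element and of several E-boxes, was in 22.2% of the 63 and 20.9% of all. The windows hold the single AGGTCA in capitals, read along the gene's strand as AGGTCA or its reverse complement TGACCT. They are given for both members of the PPAR target list among the 8 and for Ppef1 and Serpinb9e, the others with the largest falls. Cpt1a lies on chr19:3323169-3323249 (plus strand), Plin2 on chr4:86670229-86670309 (minus), Ppef1 on chrX:160720142-160720222 (minus) and the Serpinb9e window nearest to its start on chr13:33249476-33249556 (plus).
Cpt1a: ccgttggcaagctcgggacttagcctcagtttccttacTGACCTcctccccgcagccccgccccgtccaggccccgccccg
Plin2: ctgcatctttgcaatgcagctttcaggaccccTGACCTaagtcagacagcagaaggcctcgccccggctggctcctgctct
Ppef1: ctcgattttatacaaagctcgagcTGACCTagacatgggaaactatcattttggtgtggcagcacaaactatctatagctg
Serpinb9e: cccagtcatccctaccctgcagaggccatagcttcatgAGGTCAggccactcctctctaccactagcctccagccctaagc
Each is a match of letters only, and elements outside these windows were not searched.

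On the high side, genes of the cornified envelope and late differentiation were the largest group. Of 47 measured, 26 were higher in null cells and 0 lower, against 3.54% and 4.92% of all genes, and the median was 0.48. The list's mean log2 level was 10.49 to 10.65 in the wild-type arrays and 10.99 to 11.27 in the null arrays. In bulk RNA, more differentiated cells and more RNA per differentiated cell cannot be told apart. Lce1b, a late cornified envelope protein, read 8.65, 8.99 and 9.02 in wild-type arrays and 10.46, 10.59 and 10.59 in null arrays (1.67 ± 0.11, adjusted p = 1.16e-04). Hrnr, hornerin, a filaggrin-like protein, read 9.42, 9.40 and 9.74 against 10.84, 10.97 and 11.00 (1.42 ± 0.11). Lor, loricrin, the main protein of the envelope, read 9.67, 9.77 and 9.81 against 10.58, 11.00 and 10.91 (1.08 ± 0.11, adjusted p = 9.65e-04), and Sprr2b was at 1.32 ± 0.19. In these 4 genes the groups did not overlap, with null higher, as was so for 14.7% of all tested genes. Ivl, involucrin, an earlier envelope protein, was at -0.16 ± 0.09 and did not pass (adjusted p = 0.368). Near-identical Lce1 copies can share probes, so their separate values are uncertain. The count of higher genes was 17 without wild-type replicate 1 and 29 without null replicate 1.

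Further lists of epidermal genes gave counts in both directions, apart from the lipid barrier genes. Over all tested genes 3.54% were higher and 4.92% lower. Of 31 kallikreins and epidermal protease inhibitors, 14 were higher and 6 lower. Klk5 and Klk14, proteases that cleave corneodesmosomes, were higher, with Klk14 at 7.64, 7.65 and 7.55 in wild-type and 8.87, 9.07 and 9.31 in null arrays (1.47 ± 0.11), and Serpinb11 was at 1.47 ± 0.12. Of 22 lipid barrier genes 8 were higher and 0 lower, among them Alox12b and Aloxe3, the lipoxygenases that process acylceramides, at 0.74 ± 0.14 and 0.64 ± 0.11, and Lipm, an epidermal lipase, at 0.99 ± 0.14. This count rested on single arrays: it was 1 without wild-type replicate 1 or null replicate 2, 2 without wild-type replicate 2, 4 without wild-type replicate 3 or null replicate 3, and 13 without null replicate 1. Krt1 read 7.14, 7.74 and 7.69 against 8.89, 9.16 and 9.11 (1.53 ± 0.16), while its partner Krt10 was at 0.37 ± 0.11 and did not pass (adjusted p = 0.0735). Of 28 suprabasal keratins and differentiation transcription factors, Krt1 among them, 5 were higher and 2 lower. The higher count was 2 without null replicate 2 or any single wild-type array, 3 without null replicate 3 and 10 without null replicate 1. Maf and Klf4, transcription factors of keratinocyte differentiation, were higher at 0.73 ± 0.07 and 0.52 ± 0.11. The lower members were Krt79, a keratin of the hair follicle canal, at -1.24 ± 0.17 and the receptor gene Notch3 at -0.37 ± 0.07, and Notch3 lost its call without wild-type replicate 1 or 3. Alox12b, Aloxe3 and Klf4 lost their calls without wild-type replicate 1 or null replicate 2, among others. Krt6b, a keratin of activated epidermis, was higher at 0.78 ± 0.08, and the simple epithelial keratins Krt8, Krt18 and Krt7 were lower at -1.23 ± 0.18, -1.10 ± 0.15 and -1.21 ± 0.14. The basal keratins did not pass, with Krt5 at -0.01 ± 0.07 and Krt14 at 0.07 ± 0.06.

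The envelope genes were also high in null cells with Hras and no ligand, and were low in null cells without Hras. With Hras and DMSO, 18 of the 47 envelope genes were higher and 0 lower, with a median of 0.56, beside 6.79% and 7.10% of all tested genes. The test of the difference between GW0742 and DMSO passed for 1 of the 47, Rptn. In mock cells 30 were lower and 4 higher with GW0742 (median -0.54), and 25 lower and 2 higher with DMSO (median -0.38). Over all tested genes 11.4% were lower and 12.3% higher in mock cells with GW0742, and 5.17% and 4.86% with DMSO. The difference of the genotype effect between Hras and mock cells, both with GW0742, was tested in limma over the 12 GW0742 arrays and passed for 3999 genes (20.1% of those tested), 1883 (9.44%) positive and 2116 (10.6%) negative. It was positive for 37 of the 47 envelope genes and negative for 0. Lce1b was at 1.67 with Hras and -1.57 in mock cells, a difference of 3.24 ± 0.13 (adjusted p = 2.17e-07), and Lor at 1.08 and -0.54, a difference of 1.62 ± 0.13. The protease gene Klk14 was not higher with DMSO, at 8.32 ± 0.24 (SD, n = 3) in wild-type and 8.26 ± 0.13 in null Hras cells (adjusted p = 0.798), and its difference between ligand and vehicle was 1.53 ± 0.18 (adjusted p = 0.0012).

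**Figure D3:**
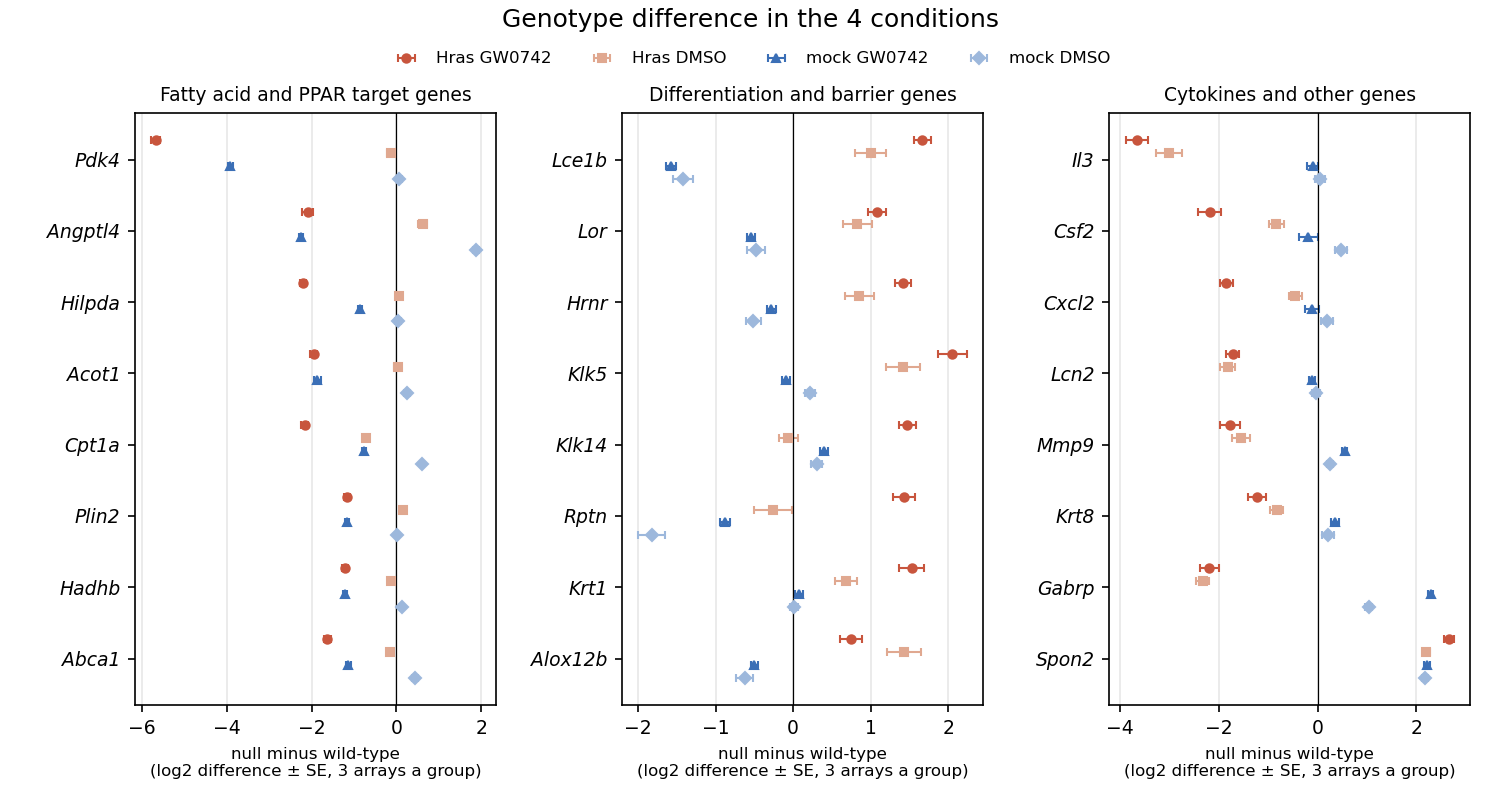
Genotype difference (null minus wild-type, log2, bars ± SE, 3 arrays a group) of 24 genes in the 4 conditions, each fitted on its own 6 arrays. The fatty acid genes at left are low in null cells with GW0742 in both Hras and mock cells, the differentiation genes at centre are high with Hras and GW0742, with Lce1b, Lor, Hrnr, Rptn and Alox12b low without Hras, and Spon2 at right is high in all 4 conditions.

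Stress response genes leaned higher in null than in wild-type cells with Hras, and lower in null cells without it. Of 34 genes of the unfolded protein and integrated stress responses, 15 were higher in null cells and 0 lower, with a median of 0.21. Over all tested genes 3.54% were higher and 4.92% lower. They include Sdf2l1, an endoplasmic reticulum co-chaperone, at 10.98, 11.00 and 10.98 in wild-type and 12.07, 11.90 and 11.88 in null arrays (0.96 ± 0.08, adjusted p = 2.73e-04), Slc7a3, a cationic amino acid transporter, at 0.90 ± 0.08, Cth, which makes cysteine, at 0.81 ± 0.12 and Ppp1r15a, the GADD34 phosphatase subunit, at 0.80 ± 0.08. The count was 10 to 16 with single arrays left out, and 10 without wild-type replicate 1 or 3 or null replicate 2. With Hras and DMSO 22 of the 34 were higher and 0 lower, beside 6.79% and 7.10% of all tested genes. In mock cells with GW0742, 24 were lower and 2 higher, beside 11.4% and 12.3%. In mock cells with DMSO, 17 were lower and 1 higher, beside 5.17% and 4.86%. The difference between Hras and mock cells with GW0742 passed for 31 of the 34, all positive, where 9.44% of all tested genes were positive. The difference between GW0742 and DMSO passed for 0.

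Cytokine genes split in both directions. Of 35 measured, 12 (34.3%) were lower and 7 (20%) higher in null cells, beside 4.92% and 3.54% of all tested genes. The lower count was 11 to 14 with single arrays left out. Csf2, which encodes GM-CSF, read 11.27, 10.86 and 10.68 in wild-type arrays and 9.21, 8.77 and 8.27 in null arrays (-2.18 ± 0.23, adjusted p = 0.00108). The neutrophil chemokine genes Cxcl2 and Cxcl1 were at -1.85 ± 0.13 and -1.09 ± 0.11, Ccl20, a chemokine for dendritic cells and T cells, at -1.56 ± 0.14 and Lif at -1.23 ± 0.13. Among the higher genes were Cxcl14, Il33, Il24 and the IL-36 family genes Il1f8, Il1f5 and Il1f9, at 1.18 to 0.69. Another gene of the IL-36 family, Il1f6, was lower at -0.46 ± 0.08 (adjusted p = 0.0119). These 6 higher genes, Il1f6 and the electron transfer and dehydrogenase genes listed above without errors were named after their values were seen. Il1f9 lost its call without wild-type replicate 1 or 2 or null replicate 2. Cxcl1 and Cxcl2 also passed the difference from DMSO, at -1.44 ± 0.18 and -1.40 ± 0.21, and so did the immediate early gene Fos, at -1.40 ± 0.20. Il3 and Csf2 did not pass it (adjusted p = 0.80 and 0.13). Il3 was at -3.01 with Hras and DMSO and at -0.10 and 0.04 in mock cells with GW0742 and DMSO, and its difference between Hras and mock cells with GW0742 was -3.56 ± 0.28. Lcn2, the siderophore-binding lipocalin of inflamed skin, was at -1.72 ± 0.13, while Defb4, a beta-defensin, was at 1.02 ± 0.08.

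Matrix and growth factor genes were mixed as well. Of 23 metalloproteinase and inhibitor genes, 7 were higher and 6 lower, and 4 were higher without wild-type replicate 3. Mmp9, a gelatinase, read 11.98, 11.32 and 11.50 in wild-type arrays and 10.20, 9.77 and 9.50 in null arrays (-1.78 ± 0.21), and Mmp1a and Mmp3, a collagenase and a stromelysin, were higher at 1.42 ± 0.18 and 1.06 ± 0.08. Of 29 TGF-beta genes 9 were lower and 3 higher, and the lower count was 4 without wild-type replicate 2 or null replicate 2 and 5 without wild-type replicate 3. Ccn1 and Ccn2, matricellular proteins, were at -1.13 ± 0.08 and -1.01 ± 0.08, while Tgfbi read 9.55, 9.73 and 9.59 against 11.09, 11.11 and 11.06 (1.46 ± 0.07, adjusted p = 3.42e-05). Of 15 EGF family genes 1 was higher, the ligand Epgn at 0.74 ± 0.13, and 1 lower, the receptor antagonist Lrig1 at -0.79 ± 0.10. Each count is 6.67% of the list, beside 3.54% higher and 4.92% lower over all tested genes. Epgn lost its call without wild-type replicate 1 or 3 or null replicate 2. Of 32 ERK feedback and immediate early genes 1 was higher and 4 lower, with Fos at -1.07 ± 0.12. The lower count was 1 without wild-type replicate 2 or 3 or null replicate 2, and 2 without wild-type replicate 1 or null replicate 3. The single higher call was lost without any one array other than null replicate 1. Of 42 cell cycle genes 1 was higher (2.38%) and 3 lower (7.14%), near the shares of all genes, and the median was 0.00. Without wild-type replicate 1 or 2 or null replicate 2, 1 was lower. Cdkn2a and Cdkn2b, which encode inhibitors of cyclin-dependent kinases, were at -0.24 ± 0.09 and -0.30 ± 0.13 and did not pass (adjusted p = 0.18 and 0.237). Ilk and Pdpk1, kinases upstream of AKT, were at -0.03 ± 0.08 and 0.01 ± 0.08 (adjusted p = 0.864 and 0.944). The exchange factor gene Rasgrp1 was lower at -0.45 ± 0.10 (adjusted p = 0.031), and lost its call without wild-type replicate 2 or 3 or null replicate 2 or 3.

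**Figure D4:**
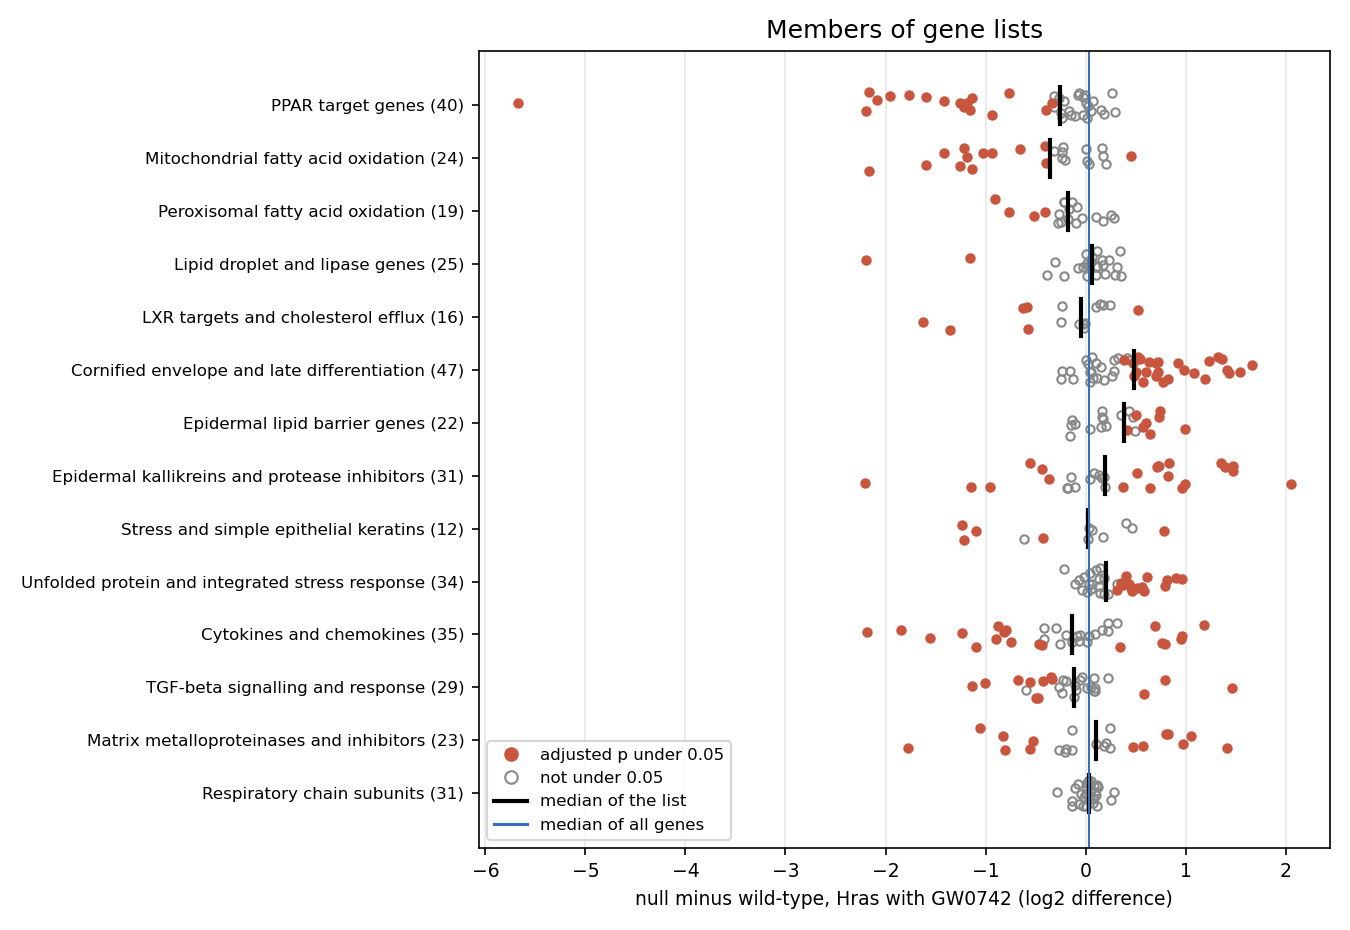
Genotype difference (null minus wild-type, log2) of each measured member of 14 gene lists in Hras keratinocytes with GW0742, with the number measured in brackets; filled points passed and open points did not. Black bars are list medians and the vertical line is the median of all genes, 0.04; PPAR target and oxidation genes extend to the left, and envelope, barrier and stress genes to the right.

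Genes that differed whatever the condition formed a smaller set: 67 were higher and 98 lower in null cells in all 4 conditions. Spon2 was higher by 2.65, 2.20, 2.22 and 2.17 with Hras and GW0742, Hras and DMSO, mock and GW0742, and mock and DMSO. In the same order Ublcp1 was at -3.07, -2.81, -2.83 and -3.35 and Mcam at -3.0, -3.23, -1.83 and -1.78. Atp10d, a phospholipid flippase gene, was at 1.85, 1.94, 1.34 and 1.45. Other genes differed between Hras and mock cells. Gabrp read 11.38, 11.39 and 11.44 in wild-type and 9.72, 9.01 and 8.89 in null arrays here, a difference of -2.20 ± 0.19, and was higher in null mock cells with GW0742 at 2.29, so that the 2 effects differed by -4.49 ± 0.22, the largest such difference. Sorbs2, an adaptor of the actin cytoskeleton, differed by -3.57 ± 0.19, Lce1a2 by 3.22 ± 0.28, Olr1, a scavenger receptor for oxidised lipoprotein, by -3.11 ± 0.26, Sox11 by -2.83 ± 0.18, Lce1f by 2.77 ± 0.22, Clca3a2 by -2.74 ± 0.16 and Kctd4 by 2.69 ± 0.12. Of the 688 genes lower in null cells in both Hras conditions, 247 (35.9%) were higher and 147 (21.4%) lower in mock cells with GW0742. Of the 437 genes higher in both, 108 (24.7%) were higher and 116 (26.5%) lower there. Over all tested genes 12.3% were higher and 11.4% lower in that condition.

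Markers of other cells were measured beside these groups. Over all tested genes 3.54% were higher and 4.92% lower here. Of 13 melanocyte markers 0 passed, while 3 were higher without null replicate 1 and 5 in the model of all 24 arrays, and 12 estimates were above 0. The list's mean log2 level was 8.52 to 8.65 in wild-type and 8.71 to 8.89 in null arrays, with Dct at 10.72, 11.00 and 10.91 against 11.08, 11.55 and 11.27. Of 19 fibroblast markers 1 was higher and 1 lower, with list means of 8.17 to 8.24 and 8.22 to 8.32. In mock cells 6 of the 13 melanocyte markers were lower in null cells with GW0742 and 9 with DMSO, and the difference between Hras and mock cells was positive for 5. Likewise 14 of the 19 fibroblast markers were lower in null cells with GW0742 and 16 with DMSO, and the difference was positive for 11. The contrast between Hras and mock cells thus moves with both marker lists, and their part in it was not tested. Of 20 leukocyte and Langerhans cell markers 1 was higher, Cd68 at 0.59 ± 0.10, which lost its call without wild-type replicate 1 or 2, with 4 higher without null replicate 1, and the list means were 6.51 to 6.57 and 6.53 to 6.77. Of 12 endothelial markers 2 were higher and 1 lower, counts that fell to 0 without null replicate 2 or any single wild-type array, with means of 7.01 to 7.08 and 6.99 to 7.18. The Y-linked genes Eif2s3y, Kdm5d and Uty were at -0.47, -0.40 and -0.52 and Xist at 0.18, and 0 of the 4 passed (adjusted p = 0.0564, 0.0531, 0.0556 and 0.289), although the 3 Y-linked genes and Dct passed in the model of all 24 arrays. In null minus wild-type mock cells with GW0742 these 4 sex-linked genes were at 0.63, 0.32, 0.42 and -0.48, all 4 passing. With Hras and DMSO 3 of the 4 passed as lower in null cells and 0 as higher. Here 3 passed as lower without null replicate 1, and 0 without any other single array. Levels of sex-linked transcripts thus move with the contrast between Hras and mock cells and with the genotype in Hras cells with DMSO. Their part in these contrasts, or in the one here, was not tested.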

How the data were processed

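RNA of keratinocytes in 8 groups had been hybridised to 24 arrays, all Affymetrix mouse gene arrays, 3 a group. The authors deposited log2 values normalized with RMA, per the submitters' processing notes; further settings of that step are not stated there. Array medians were 7.46 to 7.53, so a shift common to most genes would not be seen. Probe sets were named from the platform annotation: of 34760, 21640 had 1 symbol, 1321 several and 11799 none listed. For 954 genes with several probe sets, 1 was kept by its mean over all arrays, leaving 19937 genes, of which 19854 matched RefSeq.

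limma 3.58.1 in R 4.3.3 (lmFit, eBayes) compared 3 null with 3 wild-type arrays, and tested differences between genotype effects as interactions over 12 arrays, with Benjamini-Hochberg adjustment over all genes and a threshold of 0.05. The number of arrays limits the precision. Scripts were tested on simulated data. Figures were drawn with matplotlib 3.10.9 in Python 3.11.15. Replicate numbers were not used to pair the samples, and deviations of arrays with the same number correlated at -0.183, -0.055 and 0.135. With 3 arrays a group, these values cannot show whether the numbers mark shared cultures or batches.

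The 40 gene lists held 1088 names, of which 1012 were measured. Named genes were the 15 largest rises and falls that passed without overlap, the largest changes in each list, the 10 largest differences in each interaction and a fixed set. Predicted or unnamed transcripts were left out of the 15 largest rises and falls. Trp63, Notch3, the adhesion genes and the exceptions stated in the text were named outside this rule. The condition, lists and fixed set were chosen with earlier results of these data known. Some genes, the Hras transcript among them, are not analysed here. Alternatives were array centring, a filter on low genes, trended and robust moderation, models of all 24 arrays, other probe set rules, a minimum fold of 1.5, a replicate block and leaving out each array.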

Additional observations from a re-analysis of the deposited data

Results flagged for a closer look

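For each gene given here the genotype effect (null minus wild-type, log2) differed between conditions by the interaction test in limma. No explanation was tested.

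Against Hras cells with DMSO, the effect with GW0742 was more negative for Pdk4 by -5.54, Serpinb9e by -2.87, Angptl4 by -2.71, Hilpda by -2.26, Adm by -2.17, Ppef1 by -2.16, Acot1 by -1.98, Snai3 by -1.80 and Lgals9 by -1.58. The signalling and chemokine genes Cxcl1, Cxcl2, Fos and Hbegf differed by -1.44, -1.40, -1.40 and -0.66. The effect was more positive for Rptn by 1.69, Klk14 by 1.53 and Sostdc1 by 1.21.

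Against mock cells with GW0742, the effect with Hras was more negative for Gabrp by -4.49, Sorbs2 by -3.57, Il3 by -3.56, Olr1 by -3.11, Sox11 by -2.83, Clca3a2 by -2.74, Ppef1 by -2.50, Cxcl2 by -1.74 and Vnn1 by -1.63. It was more positive for Lce1b by 3.24, Lce1a2 by 3.22, Lce1f by 2.77, Kctd4 by 2.69 and Lor by 1.62.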

How the results depend on the processing

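Of 109 named genes that passed, 109 kept their direction under every alternative run. Il1f6, Papss2 and Prune2 were not among the 109. The call was kept by 109 with array centring, trended and robust moderation, the model of all 24 arrays and both other probe set rules, by 102 with low genes left out, where some genes were not tested, and by 59 with a minimum fold of 1.5, where Ppard (-0.46) was not called. The genotype effect passed for 2730 genes (1182 higher, 1548 lower) with trended and robust moderation, 4201 (1976, 2225) in the model of all 24 arrays, 2566 (1512 lower) with group weights and 132 (41, 91) with a minimum fold of 1.5. The difference from Hras DMSO passed for 190 genes (42 positive, 148 negative), 344 (103, 241), 195 (45, 150) and 14 (0, 14) under the same settings, and for 33 positive genes with low genes left out. The difference from mock GW0742 passed for 315 (136, 179) with a minimum fold of 1.5. With a replicate block, whose numbers are not known to pair the samples, the difference from Hras DMSO passed for 25 positive genes. With that block the genotype effect passed for 479 higher and 718 lower genes, and 107 of the 109 kept their call, all but Klf4 and Itga6.

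With single arrays left out, the genotype effect passed for 794 to 3234 genes (316 to 1528 higher, 473 to 1706 lower), the difference from Hras DMSO for 67 to 204 (7 to 47 positive, 60 to 157 negative) and that from mock GW0742 for 3197 to 4723 (1469 to 2097, 1649 to 2626). Ppard lay between -0.51 and -0.38. The sign turned without a call for Krt5 (-0.0265 to 0.0061), Ppara (-0.012 to 0.1345), Insig1 (-0.0721 to 0.0123), Ilk (-0.0685 to 0.0268) and Pdpk1 (-0.0418 to 0.0539).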
